A study of Mus musculus with 16 samples.

Results

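Plasma cells of the naive spleen were examined by scRNA-seq of viable CD45+ cells from WT C57BL/6J mice that had received no graft. Among 47060 CD45+ cells, 79 cells met the rule for a plasma cell. The rule asked for at least 5 unique molecular identifiers (UMIs, each standing for 1 captured mRNA molecule) of Jchain, at least 1 UMI of Sdc1, Prdm1, or Tnfrsf17, and no UMI of the T cell gene Cd3e, the plasmacytoid dendritic cell gene Siglech, or the myeloid gene Lyz2. They were compared with 28796 B cells of the same spleens, which held a UMI of the B cell receptor gene Cd79a, no UMI of Jchain, and none of the excluding genes. The spleens were the untreated reference of a study of mouse kidney allografts that are either accepted or rejected. CD45+ cells of kidney allografts rejecting at 1 week stood beside them. By the study's text, those grafts were C57BL/6J kidneys placed in recipients of a DBA strain. The animals were male according to the study's methods, and their age is not given in the sources used here.

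Plasma cells are the antibody-secreting end stage of B cell differentiation. The transcription factor Prdm1 (Blimp-1) shuts down the B cell program, and Xbp1, a transcription factor activated through the unfolded protein response, enlarges the endoplasmic reticulum (ER) so that large amounts of immunoglobulin can be folded, glycosylated, and exported. Jchain links the units of secreted IgM and IgA, Sdc1 (CD138) is the classical surface marker, and Tnfrsf17 (BCMA) is a receptor for survival factors. In the spleen, plasma cells are found in the red pulp and at the border of the T cell zone, and most are considered short-lived.

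Barcodes carried 5 library tags, here called libraries 1 to 5. The study's methods describe each mouse as its own sample but give no number of naive mice. The labels do not say whether each tag is a separate mouse, so the p-values below treat libraries as units whose spread may be technical. The expression test shares its estimate of spread across genes, so a p-value does not measure the spread of that gene alone. The libraries held 8052 to 11340 cells and 30054753 to 37016197 UMIs, with a median of 2716 to 3372 UMIs per cell. Barcodes that occurred in more than 1 library numbered 238, of which 1 belonged to a plasma cell, and no plasma cell barcode recurred as another plasma cell. No cell in the whole table had over 3999 genes or over 9.997% mitochondrial UMIs, so cells above such limits had been left out before deposit.

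Plasma cells made up 0.194%, 0.149%, 0.210%, 0.177%, and 0.104% of the CD45+ cells in libraries 1 to 5, which were 22, 12, 19, 16, and 10 cells. The mean was 0.167% ± 0.0417 (SD, n = 5), and the exact 95% binomial interval of the pooled share was 0.133% to 0.209%. These intervals cover counting error only, and those of the single libraries overlapped. A sort for viable CD45+ cells precedes every share, so plasma cells that lose CD45 from the surface or die during preparation cannot be told apart from plasma cells that were absent. The same rule found 0 of 11948 CD45+ cells in rejecting kidneys, for which the exact 95% interval reaches up to 0.0309% (a floor of 3 counts gives 0.0251%). That matrix held 116 Jchain UMIs in 5 cells, 111 of them in 1 cell, and only 97 of its cells had a Cd79a UMI. Tissue, strain, and condition all differed between spleen and rejecting kidney, so no test was made.

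The rule used Jchain and its partner genes, and their values describe the cells without a test. A plasma cell held a median of 361 Jchain UMIs, with a range of 5 to 1575 and quartiles of 250 and 554. The medians per library were 376, 392.5, 348, 343, and 366.5 UMIs, so the libraries hardly differed in it. Sdc1 was found in 57 plasma cells, Prdm1 in 49, and Tnfrsf17 in 37. All 3 were found in 15 cells and exactly 1 of them in 30 cells, of which 12 had a single UMI. Cd79a, the receptor component by which the comparison B cells were chosen, was found in 77 of the 79.

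Of the 79 plasma cells 76 held at least 20 Jchain UMIs, whereas among all cells 164 held at least 5 and 118 at least 20. The cells just inside the limit had 5, 17, 19, and 22 Jchain UMIs, and immunoglobulin genes made up 10.5%, 7.15%, 4.95%, and 2.39% of their UMIs. The nearest cells with a second marker but too little Jchain had 2, 1, 1, and 1 Jchain UMIs. Of the 164 cells with at least 5 Jchain UMIs, 62 lacked Sdc1, Prdm1, and Tnfrsf17. Of these, 49 also held no excluding UMI, with a median of 9 Jchain UMIs. The highest of the 49 had 399, 392, 374, and 343 Jchain UMIs and an immunoglobulin share of 55.0%, 47.9%, 51.9%, and 27.4%. The second criterion therefore left out some cells with as much Jchain and immunoglobulin RNA as the median plasma cell. A further 23 cells met both criteria and held an excluding UMI, which was Cd3e in 21 and Lyz2 in 4.

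**Figure D1:**
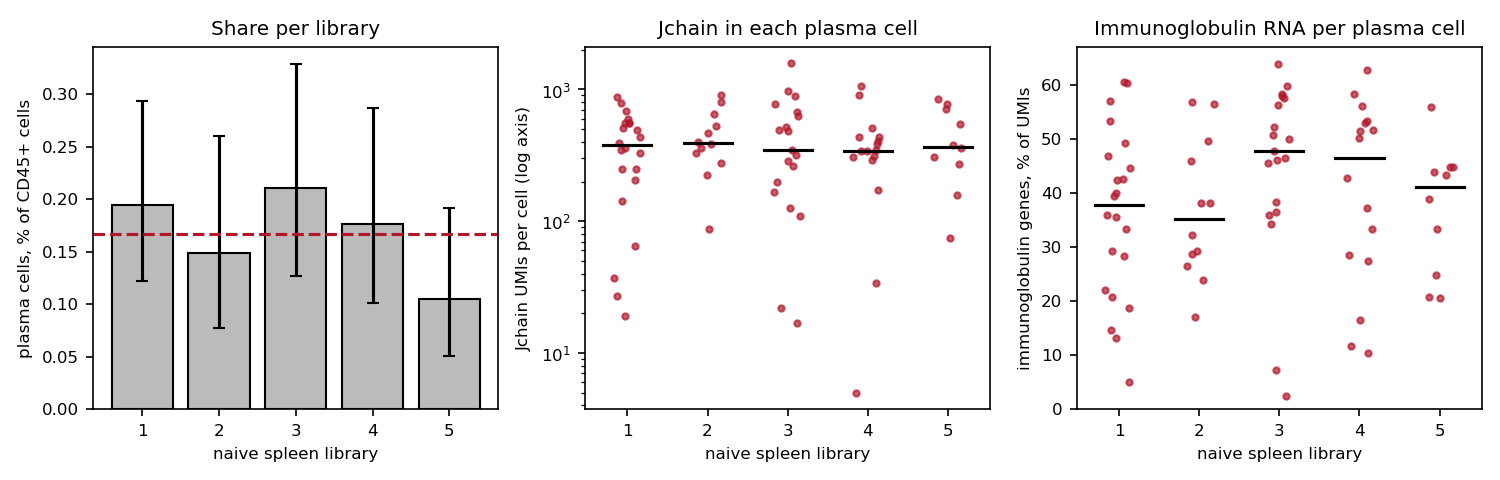
Left, share of CD45+ cells that met the plasma cell rule in each naive spleen library, in percent, with exact 95% binomial intervals as error bars and the mean of 0.167% as a dashed line. Middle and right, Jchain UMIs (log axis) and the percentage of UMIs from immunoglobulin genes in each of the 79 plasma cells by library, with a line at each library's median. The shares lie between 0.104% and 0.210%, and medians of Jchain lie between 343 and 392.5 UMIs.

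Xbp1 and Mzb1, an ER protein that assists antibody assembly, are markers that the rule did not use. Both were found in 79 of 79 plasma cells, with 1 to 52 and 3 to 168 UMIs per cell. The cell with 1 Xbp1 UMI, of library 3, held 14 Mzb1 and 10 Cd79a UMIs among 9293. Its immunoglobulin share of 2.39% lay within the range of comparison B cells, which reached 7.16%, so this cell is a doubtful member. Among comparison B cells 14.03% held an Xbp1 UMI and 56.1% an Mzb1 UMI, and among T cells, which should lack Mzb1, 9.05% and 1.01% did. Among 631 myeloid cells, with Csf1r and Cst3 and without Cd79a and Cd3d, the shares were 60.2% and 1.90%. Detection of Xbp1 was thus not particular to plasma cells. Plasma cells were also deeper, with a median of 11818 UMIs against 2690.5 in B cells and 4023 in T cells. After each cell was thinned to 1000 UMIs of genes other than immunoglobulin and rule genes, Xbp1 was found in 87.3% of plasma cells and 4.99% of B cells, and Mzb1 in 96.2% and 28.2%.

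Immunoglobulin genes filled a median of 42.5% of the UMIs of a plasma cell, with a range of 2.39% to 63.9%. The share was 1.46% in B cells and 0.0281% in T cells. Medians by library were 37.7%, 35.2%, 47.8%, 46.4%, and 41.1%. Thus 79 cells, 0.168% of the table, held 17.9% of all its immunoglobulin UMIs and 68.0% of its Jchain UMIs. The kappa light chain gene Igkc alone took 25.6%, 26.0%, 32.7%, 21.97%, and 23.4% of plasma cell UMIs in libraries 1 to 5, against a mean of 0.744% in B cells. Ighm, the IgM heavy chain, took 6.69%, 6.06%, 7.65%, 4.01%, and 7.67%, and Jchain took 3.47%, 3.24%, 3.58%, 3.32%, and 4.05%.

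The heavy chain constant gene gave each plasma cell a single isotype. In every one of the 79, the leading gene held at least 95.1% of the heavy chain constant UMIs. Ighm led in 61 cells (77.2%, exact 95% interval 66.4% to 85.9%), Ighg2c in 11 (13.9%, 7.16% to 23.5%), Igha in 4 (5.06%, 1.40% to 12.5%), and Ighg2b in 3 (3.80%, 0.790% to 10.7%). None was led by Ighg1, Ighg3, Ighe, or Ighd, which with 79 cells leaves an upper bound of the exact 95% interval of 4.56% for each. IgM cells were the most numerous class in each library, with 18, 9, 16, 9, and 9 cells. IgG2c cells numbered 3, 2, 1, 5, and 0, so library 4 held 5 of the 11. The 79 plasma cells held 78.3% of all Ighg2c UMIs in the spleen matrix and 82.98% of Ighg2b, but only 38.6% of Igha. Most Igha UMIs thus lay in cells that the rule left out. Plasma cells held 2054 Igha UMIs and comparison B cells 528. The IgA share therefore describes only the cells that met the rule. Lambda light chains led in 6 of 79 plasma cells (7.59%), which were 0, 1, 1, 3, and 1 cells in libraries 1 to 5, and in 8.27% to 11.6% of B cells with a called light chain in each library. The light chain with more UMIs made the call, and some cells were mixed. A lambda cell of library 4 had 60.5% lambda among its light chain UMIs, and a kappa cell of library 3 had 46.0%. The isotype intervals pool cells of 5 libraries and cover counting error only, and no test was made.

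Gene expression of plasma and B cells was compared with UMIs summed per library and class, and with library as a block. Rule genes and all immunoglobulin genes were left out of both the test and the totals. Values below are CPM, UMIs scaled to a common total of the remaining genes with TMM factors, and log2 differences of plasma over B cells from edgeR's quasi-likelihood test. Adjusted p denotes the Benjamini-Hochberg value, with a threshold of 0.05. SE is the size of the log2 difference divided by the square root of the test's F statistic. The plasma cell sums held 65647 to 151120 UMIs, against 17289077 to 19434948 in B cells, so low genes were measured far less well in plasma cells. Of 10745 genes tested, 28.2% passed, 11.3% higher and 16.9% lower in plasma cells. Of the 3025 that passed, 692 held fewer than 10 UMIs in plasma cells, and 658 of all tested genes held 0 there. The median log2 difference of all tested genes was −0.35. This median moved to −1.03 when CPM were set by the totals of all genes, immunoglobulin included, and the counts of genes then moved to 695 higher and 4859 lower. List medians below are therefore to be read beside the median of −0.35, and list counts beside 11.3% higher and 16.9% lower. In these sums, a rise in a few very abundant genes and a fall in all others cannot be told apart.

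In the list of plasma cell transcription factors, which also holds other regulators of RNA, 5 of the 6 tested genes were higher and 1 was lower. The median log2 difference was 2.95. Xbp1, the ER-expanding factor (GRCm38 chr11:5520659-5525893, plus strand), measured 2625, 2367, 2714, 2178, and 1442 CPM in plasma cells of libraries 1 to 5 and 48.8 to 59.1 CPM in B cells. All plasma values lay far above all B cell values (log2 difference 5.40, SE 0.12). Creb3l2, a membrane-bound transcription factor of secretory cells, was higher by 5.34 and Ell2, an elongation factor that favors the secreted form of the heavy chain, by 3.91 on the log2 scale. Irf4, needed for plasma cell formation, was higher by 1.99 (adjusted p = 1.20e-24). Zbtb20 showed a small difference of 0.46 (adjusted p = 0.0175), a call that was lost without library 3 (0.29), with thinned cells (0.32), with totals of all genes (−0.22), and without plasma cells holding Ms4a1 or Cr2 (−0.17), so that 4 of the 6 were then higher. Zfp36l1, an RNA-binding protein that promotes mRNA decay, was lower by 1.04 on the log2 scale (log2 difference −1.04).

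The B cell program was lower. Of 14 B cell transcription factors, 12 were lower, Tcf3 did not pass the test (log2 difference 0.04, adjusted p = 0.923), and 1 was higher, with a median of −1.85. Pax5, which maintains B cell identity, measured 0, 38.5, 23.3, 17.9, and 94.3 CPM in plasma cells and 471 to 564 CPM in B cells (log2 difference −4.16, SE 0.25). Spib (−4.60), Ebf1 (−3.64), and Ciita, the master regulator of MHC class II (−3.04), fell alongside. The factor that was higher was Pou2af1, a coactivator of immunoglobulin promoters, at 547 ± 182 CPM in plasma cells and 230 ± 24.2 CPM in B cells (SD, n = 5; log2 difference 1.24, adjusted p = 5.46e-16). Thinning every cell to 1000 UMIs left no B cell factor higher and 12 lower.

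Of 19 genes of the B cell surface and receptor, 17 were lower and none was higher, with a median of −2.59. The comparison cells had been chosen by a UMI of Cd79a, a member of the same receptor, which bears on this list. Cr2, the complement receptor CD21, measured 0, 28.9, 15.5, 17.9, and 108 CPM in plasma cells and 498 to 643 CPM in B cells (log2 difference −4.44). Fcer2a, the low-affinity IgE receptor CD23, was lower at −3.29, Cd37 at −2.93, and Ms4a1 (CD20) at −2.65. Fcrla and Blnk did not pass, with log2 differences of −0.28 (adjusted p = 0.236) and −0.13 (adjusted p = 0.610). Of the 9 MHC class II genes, which present antigen to CD4+ T cells, all 9 were lower, with a median of −2.23. H2-Ab1 measured 621, 799, 861, 732, and 754 CPM in plasma cells against 2332 to 2675 CPM in B cells (log2 difference −1.74). H2-DMb2, which helps load peptides, was lower at −3.22, H2-Ob, which tempers that loading, at −2.48, and H2-Eb1 at −2.23. Cd74, the invariant chain, showed the smaller difference of −0.76 and was still at 4651 ± 634 CPM in plasma cells (SD, n = 5).

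**Figure D2:**
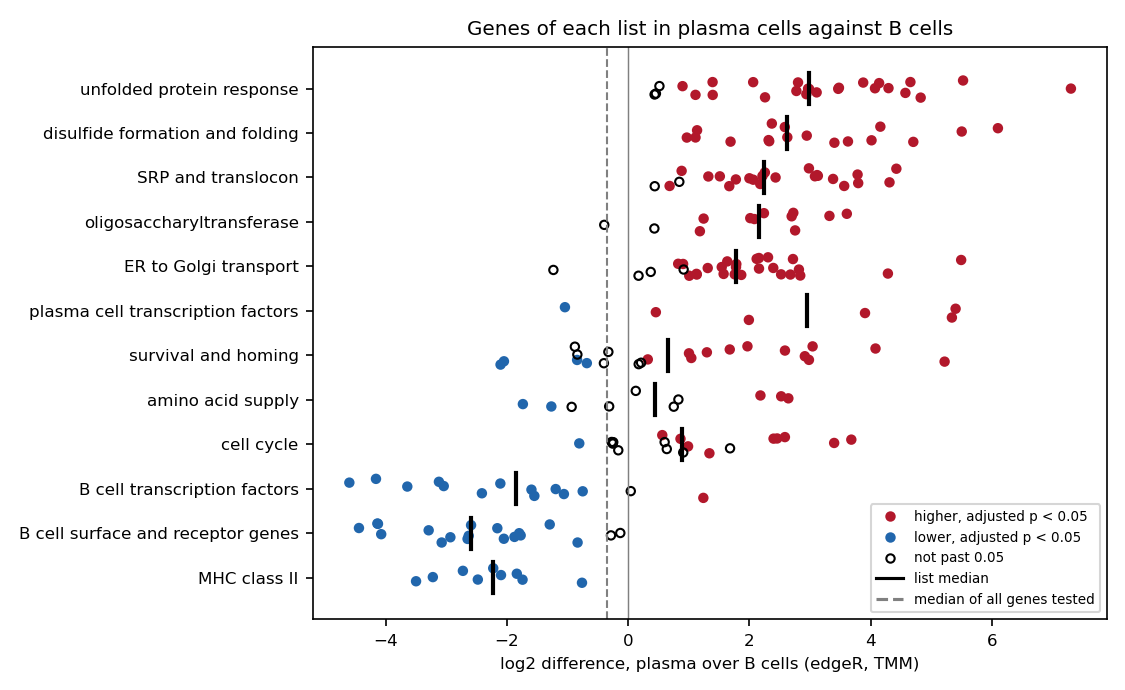
Log2 difference of plasma over B cells for each tested gene of the gene lists (1 point per gene, red for higher and blue for lower at an adjusted p under 0.05, open for genes that did not pass), with the median of each list as a bar and the median of all 10745 tested genes (−0.35) as a dashed line. ER and secretory lists sit above 0 with medians of 1.78 to 2.98, and the B cell and MHC class II lists sit below 0 with medians of −1.85 to −2.59.

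Most of the tested genes were higher in each of the 5 lists of protein export. The unfolded protein response, which matches ER folding capacity to the load of new protein, had 23 of 26 tested genes higher and none lower, with a median log2 difference of 2.98. Derl3, a component of the machinery that returns misfolded proteins from the ER for degradation, measured 307, 366, 698, 687, and 768 CPM in plasma cells and 2.41 to 5.17 CPM in B cells (log2 difference 7.30, SE 0.19, adjusted p = 1.32e-263). Hspa5 (BiP), the principal ER chaperone, measured 2772, 2589, 4358, 3196, and 2735 CPM against 364 to 421 CPM, a log2 difference of 2.97. For both genes the lowest plasma value lay far above the highest B cell value. Edem1, which marks misfolded glycoproteins for disposal, differed by 4.82 and Manf, an ER stress-inducible secreted protein, by 4.07. Hsp90b1 (GRP94), the ER member of the HSP90 chaperones, differed by 4.29 (SE 0.27, adjusted p = 0.00062). The 3 genes that did not pass belong to the PERK branch of the response. Eif2ak3, which encodes PERK, differed by 0.51 (adjusted p = 0.271), Atf4 by 0.44 (adjusted p = 0.0786), and Ddit3 (CHOP) by 0.46 (adjusted p = 0.382), and all 3 were below 0 with totals of all genes.

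Several of these promoters hold an ER stress response element (ERSE), CCAAT and CCACG separated by any 9 bases, the sequence through which ATF6 and XBP1 with NF-Y are known to activate ER chaperones. Promoters of 300 bases, 250 before and 50 after the gene start, were taken from RefSeq (GRCm38.p6) and searched on both strands, the reverse complement being CGTGG and ATTGG separated by 9 bases. The element was found in 39 of 32851 mouse promoters (0.119%). It was found in 6 of 23 promoters of the unfolded protein response list (26.1%, from 22 of its 26 genes matched) and in 4 of 22 of the disulfide and folding list (18.2%, from 15 of 17 genes). No promoter of the SRP and translocon, oligosaccharyltransferase, ER to Golgi, B cell surface, or MHC class II lists held it. The 10 genes with a match were Creld2, Derl3, Dnajc3, Hsp90b1, Hspa5, Syvn1, Calr, Canx, Ero1lb, and Pdia6, and all 10 were higher in plasma cells, in lists of which 23 of 26 and 17 of 17 tested genes were higher. The 250 bases before the starts of Hspa5 and Derl3 are shown because they carry the element in front of a principal chaperone and of the list's gene with the largest difference, and capitals mark the ERSE, which ends 47 bases before the start in Hspa5 and 138 bases before it in Derl3.
Hspa5, chr2:34771840-34772089, plus strand: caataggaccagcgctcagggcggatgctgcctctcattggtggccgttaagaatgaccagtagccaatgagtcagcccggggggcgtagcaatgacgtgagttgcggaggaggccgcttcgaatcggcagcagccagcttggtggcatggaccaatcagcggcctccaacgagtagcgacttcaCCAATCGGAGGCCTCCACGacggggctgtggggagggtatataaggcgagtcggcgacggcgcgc
Derl3, chr10:75893148-75893397, plus strand: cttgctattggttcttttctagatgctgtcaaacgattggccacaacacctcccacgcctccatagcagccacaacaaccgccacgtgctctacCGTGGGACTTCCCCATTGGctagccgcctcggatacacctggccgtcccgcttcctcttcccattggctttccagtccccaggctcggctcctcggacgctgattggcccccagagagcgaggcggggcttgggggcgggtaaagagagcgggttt

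Further matches are shown with 10 bases on either side, and capitals again mark the element. They are from Creld2 and Dnajc3, an ER chaperone-like protein and an ER co-chaperone, from Hsp90b1, which holds the element on each strand, from the disulfide isomerase Pdia6, and from the lectin chaperone Calr. Herpud1, a membrane protein of ER-associated degradation, holds the shorter ERSE-II, ATTGG and CCACG separated by 1 base, which was searched on both strands (reverse complement CGTGG and CCAAT separated by 1 base) and occurred in 12 of 32851 promoters (0.0365%). It was found in 2 of 23 promoters of the unfolded protein response list (Herpud1 and Dnajb11), in 1 of 13 of the oligosaccharyltransferase list (Krtcap2), and in none of the other lists searched.
Creld2, chr15:88819510-88819548, plus strand: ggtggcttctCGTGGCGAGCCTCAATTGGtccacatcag
Dnajc3, chr14:118937817-118937855, plus strand: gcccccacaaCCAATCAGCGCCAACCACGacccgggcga
Hsp90b1, chr10:86705628-86705666, minus strand: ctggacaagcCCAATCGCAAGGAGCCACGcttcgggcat
Hsp90b1, chr10:86705523-86705561, minus strand: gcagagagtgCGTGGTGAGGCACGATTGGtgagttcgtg
Pdia6, chr12:17266481-17266519, plus strand: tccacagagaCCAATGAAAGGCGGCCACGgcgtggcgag
Calr, chr8:84847065-84847103, minus strand: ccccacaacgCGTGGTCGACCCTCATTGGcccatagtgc
Herpud1, chr8:94386367-94386397, plus strand: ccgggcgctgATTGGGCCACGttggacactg

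These matches describe sequence alone, and no binding was measured. The log2 differences of the genes shown were 5.52 for Creld2, 4.14 for Dnajc3, 2.95 for Pdia6, 2.33 for Calr, and 3.11 for Herpud1. Canx (1.11), Ero1lb (1.14), and Syvn1 (1.39) held the element and showed the smallest differences among the 10, and none of these 3 passed with thinned cells (0.40, 0.77, and 0.10).

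Of the genes of disulfide formation and folding, all 17 tested were higher, with a median log2 difference of 2.62. Mzb1 measured 6005, 4157, 7716, 9569, and 6400 CPM in plasma cells against 343 to 455 CPM in B cells (log2 difference 4.01, adjusted p = 2.53e-137). Prdx4, an ER peroxiredoxin that uses peroxide to form disulfide bonds, measured 574, 577, 744, 643, and 768 CPM against 12.0 to 18.5 CPM (log2 difference 5.50). Both sets of values were well separated in every library. The disulfide isomerases Txndc5 and Pdia4 were higher by 4.70 and 3.40, and Fkbp2, an ER prolyl isomerase, by 4.16.

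The machinery that brings nascent chains into the ER and trims them was higher in 22 of 24 genes, with a median of 2.23. Ssr4, a subunit of the translocon-associated complex, measured 2959, 3339, 3769, 3499, and 3180 CPM in plasma cells and 148 to 180 CPM in B cells (log2 difference 4.31). The signal peptidase subunits Sec11c and Spcs1 were higher by 3.79 and 3.78, and the channel subunit Sec61b by 2.98. Of 12 genes of the oligosaccharyltransferase, the complex that adds the N-linked sugar, 10 were higher, with a median of 2.16. Ddost differed by 3.61, Rpn1 by 3.32, Ostc by 2.75, and Krtcap2 by 2.72. Tusc3 was among those that did not pass (log2 difference −0.40, adjusted p = 0.568). Of 29 genes of ER to Golgi transport, 25 were higher and none was lower, with a median of 1.78. Thinned cells gave 11 higher and 1 lower with a median of 0.80, and totals of all genes gave 19 higher and 1 lower. Lman1, a cargo receptor for glycoproteins, measured 701, 481, 791, 1303, and 647 CPM against 36.8 to 42.5 CPM (log2 difference 4.28). Tmed10 and Tmed2, cargo receptors of the p24 family, were higher by 2.82 and 2.31, and Cope, a subunit of the COPI coat, by 2.52.

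**Figure D3:**
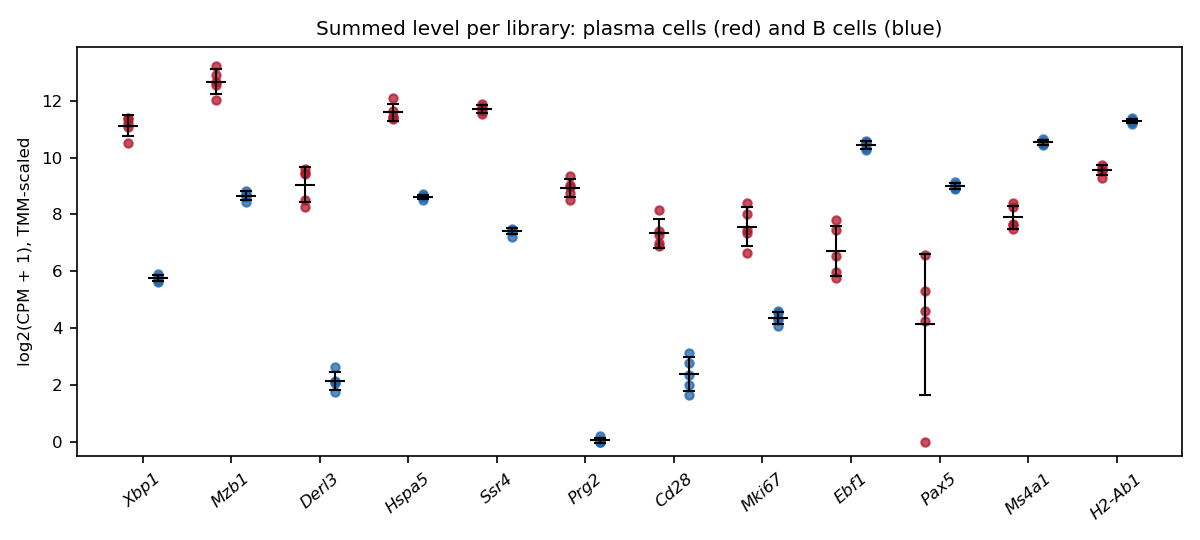
Level of named genes in each naive spleen library, as log2 of CPM plus 1 (immunoglobulin and rule genes left out of the total), for plasma cells (red) and comparison B cells (blue), with 1 point per library and bars for the mean and SD of the log2 values. Derl3 lies between 307 and 768 CPM in plasma cells and between 2.41 and 5.17 CPM in B cells, and Pax5 lies between 0 and 94.3 CPM in plasma cells and between 471 and 564 CPM in B cells.

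Survival and homing genes were mixed. Of 22 tested, 12 were higher, 4 were lower, and 6 did not pass, with a median log2 difference of 0.66. Of all tested genes 11.3% were higher and 16.9% lower, so the 4 lower genes were near the share of all genes. Cd28, a costimulatory receptor that also serves plasma cell survival, measured 154, 125, 116, 170, and 283 CPM in plasma cells against 2.17 to 7.81 CPM in B cells (log2 difference 5.22, adjusted p = 3.75e-58). T cells also express Cd28. Of 9 T cell markers tested, none was higher, 8 did not pass, and Trbc2 was lower on 8 UMIs in plasma cells (adjusted p = 0.0494), with a summed level of 0 to 284 CPM in plasma cells and 79.4 to 213 CPM in B cells. The rule asked for no Cd3e UMI, and the 21 cells it removed for Cd3e held Cd3d in 18, Trac in 16, Trbc2 in 20, and Lck in 19, so the low T cell markers were largely fixed by the rule. The Trbc2 call was lost with plain totals of the tested genes, with DESeq2, with thinned cells, and without library 2, 3, 4, or 5, among others. Without plasma cells that held Ms4a1 or Cr2, 2 of these markers were higher. After thinning, a Cd28 UMI was found in 17.7% of plasma cells and 0.234% of B cells. Slamf7, a surface receptor of plasma cells, was higher by 3.04 (adjusted p = 1.49e-68) and Epcam, an adhesion molecule, by 2.98 (adjusted p = 3.69e-19), whereas Cd38, an ectoenzyme, was lower with a log2 difference of −2.05 (adjusted p = 1.40e-17). With totals of all genes this list stood at 9 higher and 10 lower, with a median of −0.01, and with thinned cells at 4 higher and 3 lower, with a median of −0.50.

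Of 10 genes of amino acid supply, 3 were higher, 2 were lower, and 5 did not pass, with a median of 0.44. Among all tested genes 11.3% were higher and 16.9% lower, so the 2 lower genes were near that share. The median turned to −0.24 with totals of all genes (3 higher, 4 lower) and to −0.35 with thinned cells (3 higher, 1 lower). Slc3a2 and Slc7a5, which together form a transporter of large neutral amino acids, were higher by 2.64 and 2.52, Slc3a2 with 303 UMIs in plasma cells and in 5 of 5 libraries, Slc7a5 with only 17 UMIs in 10 cells and in 4 of 5 libraries. Phgdh, the first enzyme of serine synthesis, was higher by 2.18. Slc38a1, a glutamine transporter, was lower with a log2 difference of −1.27 (adjusted p = 1.12e-08).

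Of 18 cell cycle genes, 9 were higher, 1 was lower, and 8 did not pass, with a median log2 difference of 0.88. Among all tested genes 11.3% were higher and 16.9% lower. Mki67, which marks cycling cells, measured 341, 173, 256, 98.2, and 162 CPM in plasma cells and 15.7 to 23.2 CPM in B cells (log2 difference 3.40, adjusted p = 5.26e-44). At least 1 Mki67 UMI was found in 40 of the 79 plasma cells, which were 10, 7, 8, 8, and 7 cells by library, and in 1.496% of T cells. At 1000 UMIs the shares were 12.7% of plasma cells and 0.454% of B cells. The RNA was uneven, since 3 cells held 48.0% of the 125 Mki67 UMIs (24, 22, and 14 UMIs). These 3 had 17, 37, and 19 Jchain UMIs and immunoglobulin shares of 7.15%, 13.1%, and 4.95%, near the lower end of the plasma cells for both, and every other plasma cell held at most 5 Mki67 UMIs. The DNA synthesis genes Rrm2, Pclaf, and Tyms differed by 3.68, 2.46, and 2.58, and the highest value of each was in library 1 (154, 194, and 66.8 CPM) with 0 CPM in library 2. They rested on 30 UMIs in 8 cells, 46 UMIs in 6 cells, and 18 UMIs in 13 cells, and 1 cell held 50% of the Rrm2 and 45.7% of the Pclaf UMIs. Without plasma cells that held Ms4a1 or Cr2 none of the 3 passed (Rrm2 1.06, Pclaf −0.28, Tyms 1.45), and the Pclaf call was also lost with thinned cells (adjusted p = 0.222). The cell cycle list did not keep its direction. Without plasma cells that held Ms4a1 or Cr2, it stood at 1 higher and 3 lower with a median of −0.99, and after thinning at 1 higher and 2 lower with a median of −0.23.

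The 79 cells differed in the B cell transcripts they held. A UMI of Ms4a1 or Cr2 was found in 41 of them, against 3.62% of T cells. These 41 had a median of 14276 UMIs, and the other 38 had 9753 UMIs. Their summed cell cycle level was 1548 CPM against 504 CPM, an Mki67 UMI was found in 24 of 41 against 16 of 38, and the summed B cell surface level was 2478 CPM against 1466 CPM, a gene set that includes those used for the split. The 3 cells richest in Mki67 were also those richest in cell cycle UMIs, holding 50.3% of the 636 of that list, and all 3 were among the 41. Without them the cell cycle level of the remaining 38 was 691 CPM, a choice made after seeing the data. In the 41 and the other 38, the unfolded protein response summed to 23486 and 24355 CPM, the MHC class II genes to 7292 and 5801 CPM, and the median immunoglobulin share was 42.5% and 41.6%. Sums over lists and over sets of plasma cells here and below are without TMM factors. The part of B cells captured in the same droplet as a plasma cell was not tested, and no doublet caller was run. In the 40 cells with an Mki67 UMI, immunoglobulin made up a median of 36.0% of UMIs, and in the 39 without it 46.1%, with median depths of 13511 and 10608 UMIs. No test was made on these splits.

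Markers of other cell types were measured in the same sums. Of 8 myeloid markers tested 7 were higher in plasma cells, with a median of 2.61 and a summed level of 639 to 1138 CPM against 211 to 252 CPM. With thinned cells 2 were higher, with a median of 1.97. Cst3, a protease inhibitor made by many cell types, was the most abundant of those named (647 ± 205 CPM, SD, n = 5, log2 difference 1.68). C1qa, C1qb, and C1qc, complement genes of macrophages, differed by 2.60, 2.77, and 2.74. Their 102 UMIs were found in 16 plasma cells, and 1 cell of library 1 held 55.9% of them. Lyz2 was absent by rule and Fcgr1 was at 0. Of 7 NK cell markers 7 did not pass, with Ncr1 and Eomes at 0, and the summed level was 6.62 to 594 CPM against 51.2 to 114 CPM. The neutrophil genes S100a8 and S100a9, with 3 UMIs each in plasma cells, were lower, a call that DESeq2 did not make and that was lost without library 1, without the library block, and without plasma cells holding Ms4a1 or Cr2. The neutrophil markers summed to 0 to 26.5 CPM in plasma cells and 3.39 to 162 CPM in B cells. Of 3 plasmacytoid dendritic cell markers tested, Bst2 was higher by 2.00 and Tcf4 (log2 difference 0.36, adjusted p = 0.0585) and Ccr9 did not pass. Tcf4 passed with plain totals of the tested genes (adjusted p = 0.0149), with DESeq2 (0.0337), and under 4 further settings (0.0174 to 0.0495), but its log2 difference was −0.32 with totals of all genes and −0.38 with thinned cells. That list summed to 470 to 814 CPM in plasma cells and 330.1 to 381 CPM in B cells, and Siglech (by rule), Cox6a2, Klk1, and Cd209d were at 0. The 4 hemoglobin genes did not pass, and 99.4% of their 2338 UMIs in plasma cells were in 1 cell of library 1. Without library 1 all 4 passed as lower (adjusted p of 1.82e-17 to 1.03e-05), and without library 3 Hba-a1, Hba-a2, and Hbb-bt passed as higher (adjusted p of 3.88e-12 to 2.72e-06), so no direction is given for them. The platelet genes Pf4 and Ppbp were at 0. The part of these cells' RNA in the differences above was not tested.

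Outside the lists, the genes with the largest differences, among those with the same direction in all 5 libraries and at least 100 CPM in the higher class, began with Prg2, a granule protein known from eosinophils. Prg2 measured 501, 433, 520, 366, and 647 CPM in plasma cells and 0 to 0.165 CPM in B cells, so that its log2 difference of 13.04 depends on the count added to values near 0. Chst1, a sulfotransferase, followed with 77.0 to 372 CPM against 0 to 0.224 CPM. Ly6c2, a surface protein also found on monocytes and T cells, measured 1556, 1280, 1093, 714, and 1091 CPM against 9.57 to 15.9 CPM (log2 difference 6.54). Tent5c, a poly(A) polymerase that stabilizes immunoglobulin mRNA, measured 661, 722, 853, 678, and 660 CPM against 2.00 to 15.0 CPM (log2 difference 7.06, adjusted p = 0.000685). A plasma value above the B cell value in every library was fixed by how these genes were picked. Prg2 and Chst1 held only 4 and 5 UMIs in B cells. Selenom, an ER selenoprotein, differed by 7.52, Pon3, a lactonase, by 6.82, Rgcc, a cell cycle regulator, by 6.69, and the linker histone H1f0 by 6.44.

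The largest differences in the other direction included B cell genes already named (Spib, Cr2, and Pax5). Pxdc1 was at 0 in plasma cells of 4 libraries and at 8.93 CPM, 1 UMI, in library 4, against 99.1 to 114 CPM in B cells. Tespa1, a signaling protein of lymphocytes, had a log2 difference of −4.53 on 4 UMIs in plasma cells. Cd22, an inhibitory receptor of B cells, had one of −4.14 on 10 UMIs. Cxcr5, the receptor that draws B cells into follicles, measured 13.4, 9.62, 0, 0, and 13.5 CPM in plasma cells and 110 to 131 CPM in B cells (log2 difference −4.07). Gm26740 (−3.86), Neurl3 (−3.84), and Bin1 (−3.83) completed this set. These 3 held 11, 6, and 7 UMIs in plasma cells, Cxcr5 held 4, and Spib held 5, so the sizes of such differences are poorly known.

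Slpi, which encodes a secreted inhibitor of leukocyte proteases (GRCm38 chr2:164354070-164389095, minus strand), varied widely between libraries in plasma cells. It measured 347, 5928, 3249, 11470, and 243 CPM in plasma cells and 9.19, 3.70, 10.3, 2.80, and 2.31 CPM in B cells. Every plasma value lay above every B cell value, but plasma values of libraries 1 and 5 were far below those of libraries 2, 3, and 4 (log2 difference 8.83, SE 1.59, adjusted p = 0.0219). The call was lost without library 2, 3, 4, or 5 (adjusted p of 0.0525 to 0.0908).

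Most Slpi UMIs were in IgG cells. Of 2390 Slpi UMIs in plasma cells, 2172 (90.9%) were in the 14 IgG2b and IgG2c cells, of which 13 held the transcript, with a median of 125 and a range of 0 to 462 UMIs. The 61 IgM cells held 214 UMIs in 24 cells, with a median of 0 and a highest value of 55, and the 4 IgA cells held 4 UMIs in 1 cell. Summed per class, Slpi stood at 20375 CPM in IgG cells, 514 CPM in IgM cells, and 115 CPM in IgA cells. Within libraries the IgG and IgM values were 614 and 269 CPM in library 1, 19107 and 820 CPM in library 2, 14658 and 791 CPM in library 3, and 41887 and 344 CPM in library 4. Library 5 held no IgG cell. Summed IgG values thus lay above IgM values in 4 of 4 libraries, by little in library 1 and by far in the others. Each sum rested on few IgG cells. Their Slpi UMIs were 0, 3, and 12 in library 1, 23, 326, and 209 in library 2, and 118, 132, 462, 327, and 226 in library 4. In library 3 they were 329, 3, and 2, so 1 cell carried nearly all of that value, and an IgM cell there held 55. Of 631 genes with at least 100 UMIs in the plasma cells and more than 3 in each of the IgG and IgM classes, ribosomal protein and mitochondrial genes left out, Slpi had the highest ratio of IgG to IgM. These classes held few cells and Slpi was singled out after its values were seen, so no test was made.

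**Figure D4:**
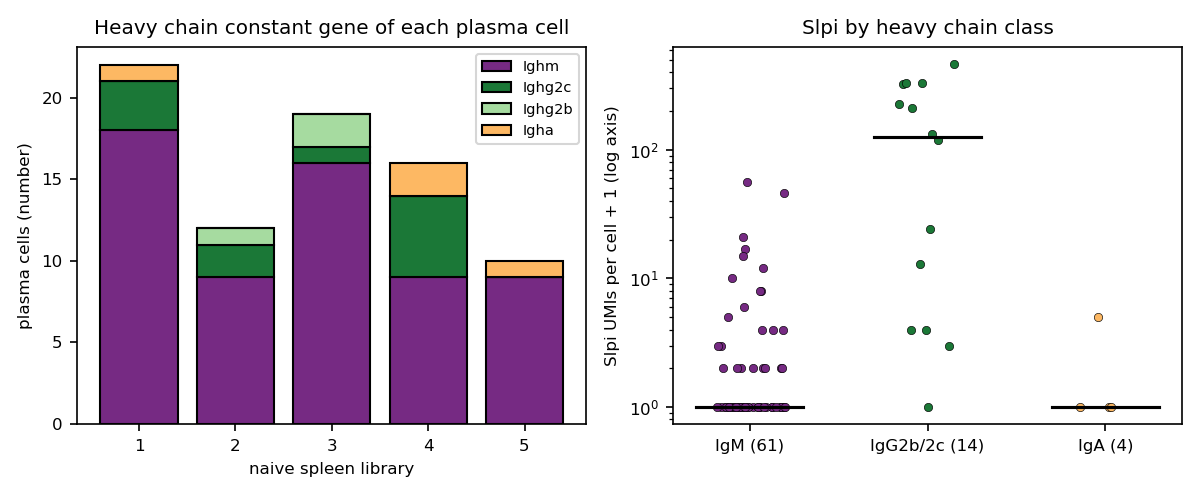
Left, number of plasma cells by leading heavy chain constant gene in each naive spleen library. Right, Slpi UMIs in each plasma cell by isotype class (UMIs plus 1 on a log axis, 1 point per cell, with the class median as a line), with medians of 0 UMIs in 61 IgM cells and 125 UMIs in 14 IgG cells.

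The number of different genes detected per cell was compared after thinning each cell to 1000 UMIs of genes other than immunoglobulin and rule genes. Medians were 560.5, 574, 566, 572.5, and 553 genes in plasma cells of libraries 1 to 5 and 573, 578, 569, 578, and 578 genes in B cells. Plasma cells were lower in 5 of 5 libraries, by a mean of 10.0 genes (differences of −12.5, −4, −3, −5.5, and −25). A two-sided exact sign-flip permutation test gave p = 0.0625, which is the smallest value that 5 libraries allow, so a p under the threshold was out of reach. At 500 UMIs the mean difference was −6.2 genes, lower in 4 of 5 libraries (exact p = 0.125), and at 2000 UMIs it was −19.2 genes with library 5 at −64.5 (exact p = 0.0625). Too shallow for 2000 UMIs were 3 plasma cells and 5082 B cells, against 0 and 140 at 1000 UMIs, so the cells compared differed. Without thinning, plasma cells had 930.5 more genes than B cells, on the difference of medians averaged over libraries. Mitochondrial genes took a median of 2.18% of all plasma cell UMIs and 4.62% of all B cell UMIs, and 3.75% and 4.69% with immunoglobulin UMIs left out of the total, which was computed after seeing the data.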

How the data were processed

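The authors mapped reads with Cell Ranger (mm10 per the submitters' processing notes, version not given in the sources used here), filtered cells in Seurat by UMIs, genes, and mitochondrial content, and deposited raw UMI counts without normalization. Members and gene lists were chosen with earlier results of these data known. Libraries were told apart by barcode tags. UMI counts were summed per library and class, and plasma cells were tested against B cells with edgeR 4.0.16 (R 4.3.3) by filterByExpr, TMM factors of the genes in the fit, a library block, the robust quasi-likelihood test, and Benjamini-Hochberg adjustment at 0.05. Both classes come from the same libraries, which is where the pairing comes from. On simulated data (10518 genes), 86.0% of 4-fold and 20.4% of 2-fold increases were recovered, with 47.8% and 18.0% of decreases of those sizes, and 4 of 10323 unchanged genes were called. Both simulated classes were drawn from the same B cell profile with few genes changed. The simulation therefore cannot tell how the choice of totals affects the real counts of genes. Isotype needed 10 heavy chain constant UMIs, with 50% from 1 gene. Thinning used a fixed seed. Intervals are Clopper-Pearson (scipy 1.17.1). Named genes are the markers and rule genes, the 4 genes of each list with the smallest adjusted p, and the 10 largest and 10 smallest log2 differences among genes with adjusted p under 0.05, 1 direction in all libraries, and at least 100 CPM in the higher class, without mitochondrial, ribosomal, and T cell receptor genes. Genes named beyond this rule were chosen after their values were seen. T cells held UMIs of Trac and Cd3d and none of Cd79a or Jchain. Gene coordinates are from GENCODE M21. A gene, and a choice of cells that used it, are not reported here.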

Additional observations from a re-analysis of the deposited data

Results flagged for a closer look

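In 18 of 98 groups of plasma cell values that could be examined (5 libraries each), 1 library stood far from the other 4 by Dixon's criterion. Chance gives about 4.9 for continuous and independent groups, which these were not. Ccr9 and Pxdc1 rested on 1 UMI each, and 99.4% of the hemoglobin UMIs were in 1 cell. The 2 figures are therefore not compared. In library 1 the flagged groups were the hemoglobin genes Hba-a2 (1817 CPM), Hba-a1 (2845 CPM), Hbb-bt (2004 CPM), and Hbb-bs (8924 CPM), which were 0 to 23.3 CPM elsewhere. The complement genes C1qb (167 CPM, others 8.93 to 28.9), C1qa (147 CPM, others 17.9 to 46.5), and C1qc (187 CPM, others 0 to 31.0) stood apart in that library too. So did Slamf7 (468 CPM, others 312 to 337), Rrm2 (154 CPM, others 0 to 35.7), and Trbc2 (46.8 CPM, others 0 to 8.93).

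Library 3 stood apart for Cd8b1 (62.0 CPM, others 0 to 8.93), Cd3d (23.3 CPM, others 0 to 6.68), and Ccr9 (7.75 CPM, others 0). Library 5 did so for Cr2 (108 CPM, others 0 to 28.9) and Nkg7 (53.9 CPM, others 0 to 15.5). Library 4 did so for Sec61b (3053 CPM, others 1886 to 2144) and Pxdc1 (8.93 CPM, others 0), and library 2 for Neurl3 (48.1 CPM, others 0 to 13.5).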

How the results depend on the processing

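The 5 secretory lists kept a median above 0, and the B cell and MHC class II lists one below 0, with plain totals of the tested genes, totals of all genes, DESeq2, plasma cells without Ms4a1 or Cr2 (chosen after seeing the data), and thinned cells. The main counts were 1212 genes higher and 1813 lower. They were 695 and 4859 with totals of all genes (12.5% of calls higher, median −1.03, against 40.1%), 1499 and 917 with DESeq2 1.42.0 (62.0%, median 0.08), 597 and 1452 without plasma cells holding Ms4a1 or Cr2 (29.1%), and 238 and 1387 with cells thinned to 1000 UMIs (14.6%). Of these, DESeq2, which gave 13318 genes an adjusted p, had more genes higher than lower. Other settings stayed within 1.5 times, and leaving out 1 library gave 996 to 1173 higher and 1347 to 1603 lower. Without the library block, which pairs the classes, the counts were 1303 and 2186. The share was 0.156% to 0.183% without 1 library and 0.0778% without cells holding Ms4a1 or Cr2, and IgM cells were 75% to 82.5%. Genes per cell differed by −11.75 to −6.25 without 1 library and by 930.5 without thinning. Of 1579 comparisons over 106 named genes, 1486 kept direction and side of the threshold, 39 lost a call, 22 gained one, and 32 turned direction. Those were Pclaf (−0.28), Nkg7 (0.24), and Ccr9 (0.17) without cells holding Ms4a1 or Cr2, Cd8b1 without library 3 (−0.79, other libraries left out 1.33 to 1.87), Nkg7 thinned (0.18), Tcf4 with totals of all genes (−0.32) and thinned (−0.38), and the hemoglobin genes. Hba-a2 gave −0.82 and Hba-a1 −1.30 with DESeq2, and −4.53 to 1.81 and −12.23 to 2.02 when 1 library was left out, the low ends without library 1. Hbb-bt gave −0.34 with totals of all genes, −2.31 with DESeq2, and −12.38 to 1.41 when 1 library was left out, and Hbb-bs gave −0.79, −2.45, and −4.96 to 1.46 there, and −0.0019 with at least 10 Jchain UMIs. With totals of all genes, Atf4 gave −0.23, Ddit3 −0.22, Eif2ak3 −0.17, Tcf3 −0.64, and Zbtb20 −0.22, and without cells holding Ms4a1 or Cr2, Ddit3 gave −0.43, Eif2ak3 −0.44, Tcf3 −0.49, and Zbtb20 −0.17. Thinned cells gave −1.29 for Eif2ak3 and −1.67 for Tcf3. Tcf3 also gave −0.025 with at least 10 Jchain UMIs, and −0.073 to 0.19 when 1 library was left out (below 0 without library 2, −0.015, or 3). The cause of these changes was not tested. The planned test of IgM against IgA plasma cells was not run, since 0 libraries held 5 cells of each.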

Other observations

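IgG and IgM plasma cells differed in further genes, chosen here after their values were seen and given without a test. Among 631 genes with at least 100 UMIs in plasma cells and more than 3 in each of these classes, ribosomal protein and mitochondrial genes left out, the log2 ratio of IgG over IgM was highest, after Slpi, for Fut8, which encodes the fucosyltransferase that adds core fucose to N-linked sugars (1.98), Rrbp1, a ribosome-binding protein of the rough ER (1.34), Fcrla (1.31), and the histone gene Hist1h1d (1.30). Hemoglobin genes, with at most 1 UMI in IgG cells, fall outside this limit. The ratio was lowest for Actg1, a cytoskeletal actin (−3.19), Plac8 (−2.89), Zfp36l1 (−2.01), Klf2, a transcription factor that regulates homing (−1.73), and Phgdh (−1.70). Each kept its direction in 4 of 4 libraries with both classes, as did 83 of the 631 genes on the higher side and 55 on the lower side, with a median ratio of 0.13.

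Kappa chain variable genes could be called in 57 plasma cells, with 28 different genes. Igkv1-135 led in 9 of them, which were 7 of 14 called cells in library 3, 2 of 7 in library 5, and 0 in the other libraries. In B cells the same gene took 6.23% to 7.16% of Igkv UMIs in every library. The 7 cells of library 3 had 6 distinct leading heavy chain variable genes. Heavy chain variable genes could be called in 29 cells, with 21 different genes, of which Ighv1-55 led in 5. A call needed 10 UMIs of variable genes of that chain, with 50% from 1 gene. By this limit the lambda gene Iglv1 was called in 34 plasma cells, though lambda led in only 6 of 79. A called variable gene is thus not always of the light chain that led in the cell. Variable genes of 1 family share sequence, so reads can be placed on a near relative, and no test was made.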
